A study of Mus musculus with 2 samples.

Results

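Malat1, Neat1, Kcnq1ot1 and 5 snoRNA host genes (Gas5, Snhg1, Snhg8, Snhg12 and Snhg20) are long non-coding RNAs that were followed here through macrophages of the mouse sciatic nerve. They were chosen by name, and all 8 were found among the 54838 genes of both count matrices. Cells were barcodes with at least 500 UMIs and 200 genes, and a UMI (unique molecular identifier) marks 1 captured RNA molecule. The 8 genes were read in all cells and within 3 bins of UMIs per cell, namely 500 to under 1000, 1000 to under 2000, and 2000 or more.

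The study used Flt3-Cre LSL-YFP fl/fl mice, in which Cre driven by Flt3 leaves a permanent YFP mark in any cell whose ancestors expressed Flt3, a gene of blood progenitors. YFP- and YFP+ cells both came from these same mice, so both carry the Cre and the reporter, and YFP- macrophages were read by the study as embryonic in origin. The sciatic nerves were pooled from 19 mice, all males of 10 to 12 weeks, and digested with enzymes, and CD64+ CD45int macrophages were then sorted by YFP. Each group is 1 library of pooled mice, so there is no replicate, no test and no p-value, and every interval below covers counting error only. YFP marks a history of Flt3 expression, so a YFP- cell can also be 1 in which Cre did not act.

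The YFP- library held 1045 cells with a median of 2233 UMIs, and the YFP+ library held 4053 cells with a median of 1484. The 3 bins held 150, 288 and 607 YFP- cells and 1184, 1568 and 1301 YFP+ cells, so the lowest bin held 14.4% of YFP- cells but 29.2% of YFP+ cells. All 10 macrophage markers were detected in both libraries, with C1qa at 6161 and 6101 CPM (counts of the gene per 1000000 UMIs), in YFP- and YFP+ cells in that order. Of the cell barcodes, 7 occurred in both libraries. Levels are given as CPM of the summed cells, with a floor of 3 UMIs, equal to 1.24 CPM for YFP- cells and 0.445 CPM for YFP+ cells. Fewer cells with a transcript and fewer copies per cell cannot be told apart in such sums, and the assay reads transcript ends, so CPM compares a gene between groups but not 1 gene with another per length.

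Malat1 is an abundant nuclear RNA that gathers at nuclear speckles, where splicing factors are stored. Neat1 lies beside it in the genome and is the scaffold of paraspeckles, nuclear bodies that form on its long isoform and hold back proteins and RNAs. Kcnq1ot1 is transcribed from the paternal chromosome only, antisense within the gene Kcnq1, and silences neighbouring imprinted genes in cis. The snoRNA host genes are spliced like messenger RNAs, but their introns carry small nucleolar RNAs that guide the modification of ribosomal RNA. Many host transcripts begin with a run of pyrimidines, a 5′ terminal oligopyrimidine (TOP) motif that they share with messenger RNAs of ribosomal proteins, and several are removed by nonsense-mediated decay once ribosomes reach them. Nuclear RNAs such as Malat1 are known in droplet data for taking a larger share of the reads where cytoplasmic RNA is scarce.

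In GRCm38 coordinates of GENCODE release M21, Malat1 lies at chr19:5795690-5802672 and Neat1 at chr19:5824708-5845478, both on the minus strand and 22035 bases apart. Kcnq1ot1 is a single unspliced transcript of 93092 bases at chr7:143203458-143296549 on the minus strand, wholly within Kcnq1. Kcnq1 itself had 0 UMIs in YFP- cells and 2 in YFP+ cells. Gas5 at chr1:161034422-161038539, on the plus strand, has 25 annotated transcripts and 10 snoRNA entries in its introns or exons, of which 2 are overlapping entries for Snord80. Snhg1 at chr19:8723475-8726443, on the plus strand, holds 8 snoRNAs, and Snhg12 at chr4:132308623-132311024, also on the plus strand, holds 5 entries, of which 2 overlap. Snhg8 at chr3:123507552-123508404, on the minus strand, holds only Snora24. Snhg20 at chr11:117076008-117078955, on the plus strand, holds no annotated snoRNA but the scaRNA Gm26083, a guide RNA of the Cajal body. Every snoRNA entry in these hosts had 0 UMIs in both libraries. The start of Gas5 overlaps Zbtb37 on the opposite strand, which had 28 and 104 UMIs, and a predicted gene opposite Malat1, Gm37376, had 188 and 314.

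The first bases are printed for the hosts and for Malat1 because a TOP motif lies there. Each line holds 60 bases around the RefSeq start (GRCm38.p6), 30 before it and 30 from it onward, read 5′ to 3′ on the gene's own strand, with the longest run of C and T in capitals.
Snhg12 (chr4:132308648-132308707, plus strand): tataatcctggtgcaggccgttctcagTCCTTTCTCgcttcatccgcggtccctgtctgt
Snhg1 (chr19:8723457-8723516, plus strand): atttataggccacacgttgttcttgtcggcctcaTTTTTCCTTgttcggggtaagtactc
Snhg8 (chr3:123508307-123508366, minus strand): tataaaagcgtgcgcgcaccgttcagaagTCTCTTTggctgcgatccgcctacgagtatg
Gas5, second start (chr1:161035136-161035195, plus strand): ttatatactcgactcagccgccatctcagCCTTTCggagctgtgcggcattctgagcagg
Snhg20 (chr11:117076753-117076812, plus strand): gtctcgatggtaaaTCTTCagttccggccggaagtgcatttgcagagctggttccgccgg
Malat1 (chr19:5802643-5802702, minus strand): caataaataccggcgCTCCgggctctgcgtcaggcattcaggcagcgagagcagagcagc

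The runs of Snhg12, Snhg8 and the second Gas5 start reach across the annotated start, and that of Snhg1 begins at base 5 of the transcript, while the first RefSeq start of Gas5 has no run over 3. They are 9 bases long in Snhg12 and Snhg1, 7 in Snhg8 and 6 in Gas5, whereas the longest runs of Snhg20 (5) and Malat1 (4) lie upstream of the start. A run of at least 9 occurred in the same window of 15.6% of 32851 mouse promoters, of at least 7 in 33.8%, and of at least 6 in 49.6%. Runs of at least 8 were present in 22.9% of all promoters and in 48.1% of 81 promoters of ribosomal protein genes. A run is a match of letters and does not show that a TOP motif is used.

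Runs of A matter because the assay primes on poly(A), and the 3′ end that Malat1 carries in cells is not a poly(A) tail. The longest run of A in the longest transcript of 3 genes is printed in capitals with 20 bases on either side.
Malat1 (run at chr19:5795988-5795999, minus strand): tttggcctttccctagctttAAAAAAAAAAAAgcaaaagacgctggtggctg
Kcnq1ot1 (run at chr7:143226945-143226985, minus strand): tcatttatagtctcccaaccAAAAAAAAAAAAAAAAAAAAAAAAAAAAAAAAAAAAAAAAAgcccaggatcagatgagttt
Snhg12 (bases 460 to 471 of 1538 in its longest transcript): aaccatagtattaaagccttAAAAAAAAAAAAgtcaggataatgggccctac

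The run of 12 A in Malat1 ends 298 bases before the annotated end and is the only run of 8 or more in its 6983 bases. Kcnq1ot1 holds 30 runs of 8 or more, the longest of 41 bases, whereas Neat1, Gas5, Snhg1, Snhg8 and Snhg20 hold none, the longest being 7, 5, 5, 5 and 6 bases. Internal priming can give 1 molecule more than 1 UMI, and its part in the levels was not tested. The isoforms of Neat1 share their 5′ part and were not separated by the counts.

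Malat1 was by far the most abundant of the 8 RNAs. It had 85986 UMIs in YFP- cells, a level of 35560 CPM (95% interval 35323 to 35799), and 286086 UMIs in YFP+ cells, a level of 42399 CPM (42243 to 42554). Neat1 followed, with YFP- cells at 671 CPM (639 to 704) and YFP+ cells at 523 CPM (506 to 540). Gas5, whose transcript is known for growth arrest, was at 433 and 488 CPM. Snhg8 was at 184 and 175 CPM. The other 4 were scarce: Kcnq1ot1 at 57.9 and 59.0 CPM, Snhg1 at 55.0 and 47.1, Snhg20 at 38.0 and 27.0, and Snhg12 at 28.1 and 24.2. The order of the 8 levels was Malat1, Neat1, Gas5 and Snhg8 in both libraries, followed in YFP- cells by Kcnq1ot1 and Snhg1, whose intervals overlapped (48.7 to 68.3 and 46.1 to 65.2 CPM), then by Snhg20 and Snhg12, whose intervals also overlapped (30.7 to 46.7 and 21.8 to 35.7 CPM). In YFP+ cells Neat1 and Gas5 were close but their intervals did not overlap.

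**Figure D1:**
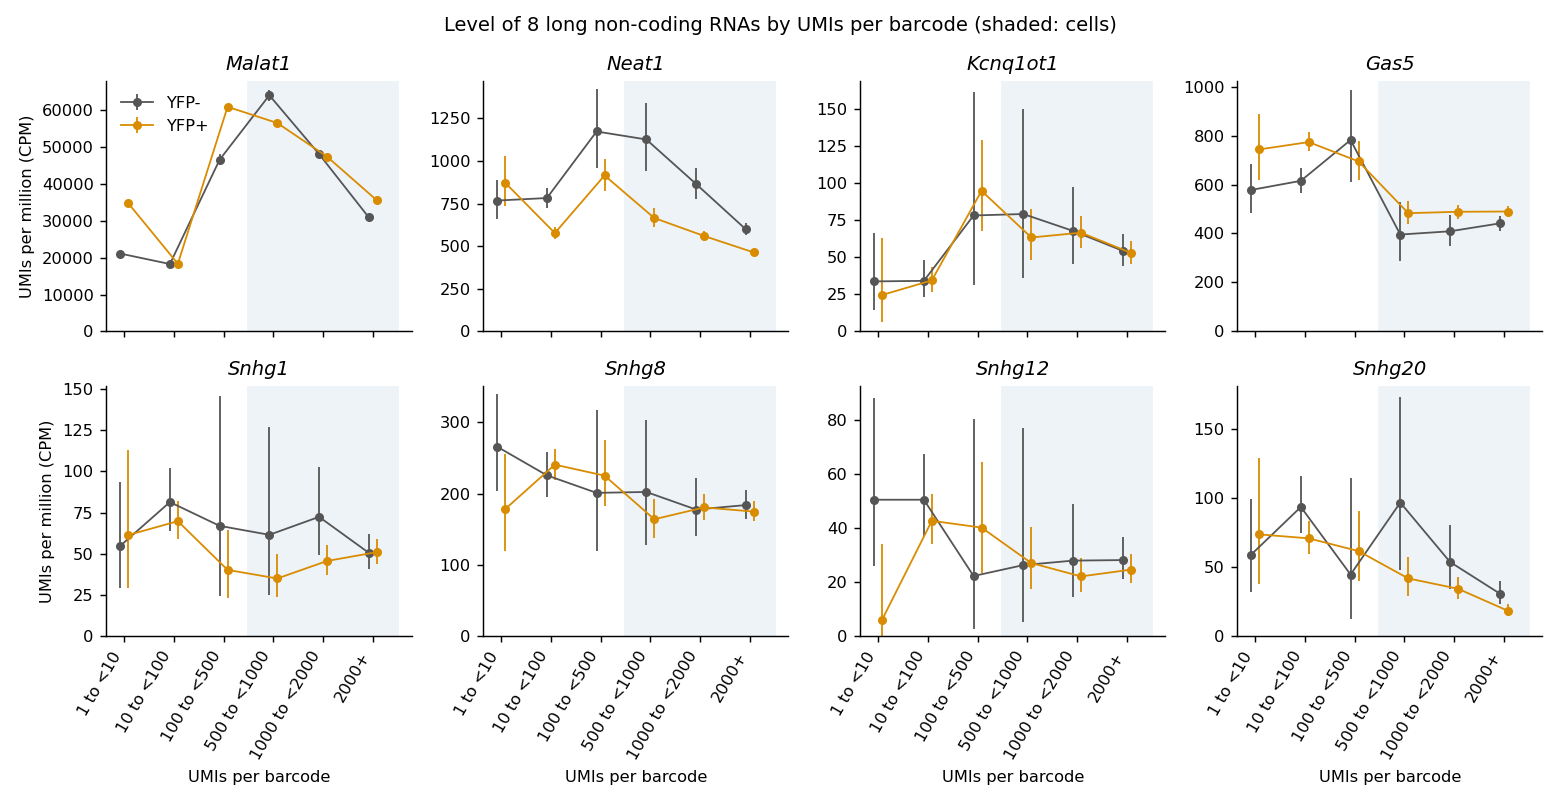
Level of each long non-coding RNA in CPM (y axis, linear, from 0) against the UMIs per barcode (x axis, 6 bands), with YFP- in grey, YFP+ in orange, bars as exact Poisson 95% intervals and the 3 bands of cells shaded. Malat1 is highest in YFP- cells of 500 to under 1000 UMIs (64106 CPM) and between 18306 and 18374 CPM in barcodes of 10 to under 100 UMIs of both libraries, while Gas5 is lower in the 3 bands of cells than in the 3 bands below them.

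The first comparison asked whether the RNAs differ between macrophages with and without a history of Flt3. None of the 8 differed by 1.5-fold or more, whereas 1.54% of the 5531 genes with a mean of at least 20 CPM were higher by that much in YFP+ cells and 5.77% were lower. Malat1 was 1.19-fold higher in YFP+ than in YFP- cells, a log2 ratio of 0.25 (0.24 to 0.26, with 1 CPM added to each level). Gas5 was also slightly higher in YFP+ cells, with a log2 ratio of 0.17 (0.07 to 0.27). Neat1 was lower in YFP+ cells, with a log2 ratio of -0.36 (-0.44 to -0.27), which is 1.28-fold. Snhg20 was lower as well, with a log2 ratio of -0.48 (-0.84 to -0.11), which rests on 92 and 182 UMIs. The intervals of Kcnq1ot1 (log2 ratio 0.03, -0.25 to 0.31), Snhg1 (-0.22, -0.51 to 0.08), Snhg8 (-0.07, -0.22 to 0.09) and Snhg12 (-0.21, -0.61 to 0.20) included 0. The median over all 5531 genes was -0.00.

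The 2 libraries differ in depth, and Malat1 and Neat1 behaved differently when cells of the same bin of UMIs were compared. Among cells of 500 to under 1000 UMIs Malat1 was lower in YFP+ cells, at 56581 against 64106 CPM, a log2 ratio of -0.18 (-0.22 to -0.14). In cells of 1000 to under 2000 UMIs it was at 47461 against 48149 CPM, with an interval of the log2 ratio from -0.04 to 0.00. In cells of 2000 or more UMIs it was higher in YFP+ cells, at 35617 against 30959 CPM, a log2 ratio of 0.20 (0.19 to 0.22). That bin has no upper edge, and its YFP- cells were deeper than its YFP+ cells, with a median of 2946 against 2541 UMIs. The part of this depth difference in the ratio was not tested. The median over all genes was itself -0.21, -0.10 and 0.01 in these 3 comparisons. The Malat1 ratio lay at the 51.4th percentile of all genes in the lowest bin and at the 78.0th in the highest. The lowest YFP- bin held only 113718 UMIs over all genes, and a gene can pass the 20 CPM minimum through that bin alone. The median and percentiles of the lowest bin may therefore be partly set by the minimum. With the 3 bins given equal weight, a setting chosen after these values were seen, the Malat1 log2 ratio was -0.04. It was the only value below 0 among 14 alternatives, many of which kept the mix of depths as it was. Neat1 kept its direction in all 3 bins, with log2 ratios of -0.76 (-1.04 to -0.47), -0.63 (-0.79 to -0.46) and -0.37 (-0.48 to -0.26) from the lowest to the highest bin, and it was at -0.62 with equal weights. Its levels in the lower 2 bins were 665 against 1126 CPM and 560 against 865 CPM. Against all genes these ratios lay at the 22.2nd, 13.9th and 12.4th percentile. In barcodes of 10 to under 100 UMIs, outside cells, Neat1 was also lower in the YFP+ library, at 577 against 782 CPM.

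Snhg20 was below its YFP- level in each bin, at 41.8 against 96.7 CPM, 34.4 against 53.8 CPM and 18.5 against 30.9 CPM. The 11 UMIs of the lowest YFP- bin leave a log2 ratio of -1.19 with a wide interval (-2.18 to -0.09), that of the middle bin was -0.63 (-1.30 to 0.09), and that of the highest was -0.71 (-1.22 to -0.20). Gas5 was higher in YFP+ cells in each bin, with log2 ratios of 0.29 (-0.16 to 0.76), 0.26 (0.03 to 0.49) and 0.15 (0.03 to 0.27). The interval of Snhg1 lay below 0 in the middle bin (log2 ratio -0.65, -1.24 to -0.04) and included 0 in the other bins. Kcnq1ot1, Snhg8 and Snhg12 had intervals that included 0 in all 3 bins. From the lowest to the highest bin, 3, 3 and 1 of the 8 RNAs were 1.5-fold or more lower in YFP+ cells and 0 were higher. Of all genes, 29.2%, 15.8% and 6.77% were lower by that much, and 16%, 5.87% and 2.33% were higher. The RNAs were Neat1, Snhg1 and Snhg20 in the lower 2 bins and Snhg20 in the highest. Snhg1 in the lowest and Snhg20 in the middle bin had intervals that included 0.

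**Figure D2:**
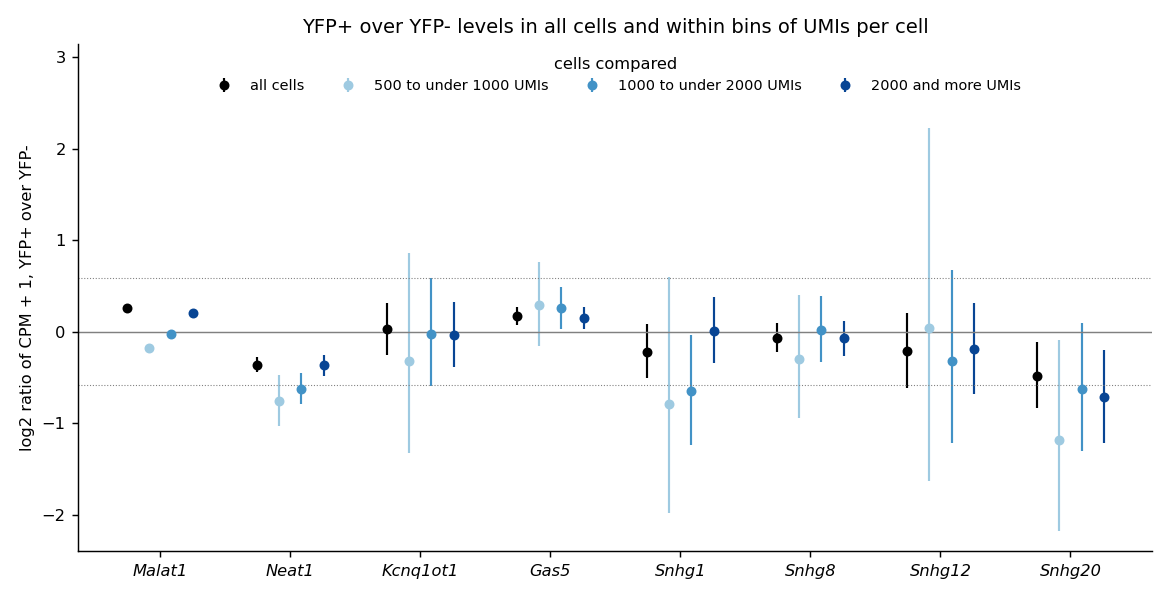
Log2 ratio of YFP+ over YFP- levels (y axis, of CPM + 1) for the 8 RNAs (x axis), in all cells (black) and within the 3 bins of UMIs per cell (light to dark blue), with 95% intervals and dotted lines at 1.5-fold. The Malat1 points go from -0.18 to 0.20 from the lowest to the highest bin, whereas the 4 Neat1 points and the 4 Snhg20 points are all below 0.

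The second comparison set cells of 500 to under 1000 UMIs against cells of 2000 or more within a library. In YFP- cells Malat1 was at 64106 CPM in the lowest, 48149 in the middle and 30959 in the highest bin. In YFP+ cells it was at 56581, 47461 and 35617 CPM. The lowest bin was therefore above the highest by a log2 ratio of 1.05 (1.01 to 1.09) in YFP- and 0.67 (0.65 to 0.68) in YFP+ cells. Counted per cell the order was the opposite, with a mean of 48.6, 71.5 and 95.7 Malat1 UMIs per YFP- cell and 42.3, 69.6 and 97.6 per YFP+ cell. Cells of the highest bin thus had more Malat1 UMIs, but their total grew further, from a mean of 758 to 3091 UMIs in YFP- and from 747 to 2740 in YFP+ cells.

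Neat1 was at 1126, 865 and 599 CPM in YFP- and at 665, 560 and 463 CPM in YFP+ cells from the lowest to the highest bin. Its log2 ratio of lowest over highest was 0.91 (0.63 to 1.17) in YFP- and 0.52 (0.38 to 0.66) in YFP+ cells, the second being under 1.5-fold. Snhg20 had the largest ratio of the 8, with 96.7, 53.8 and 30.9 CPM in YFP- and 41.8, 34.4 and 18.5 CPM in YFP+ cells. Its log2 ratios were 1.61 (0.55 to 2.55) and 1.13 (0.53 to 1.72), on 11 and 37 UMIs in the lowest bins.

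The hosts Gas5, Snhg8 and Snhg12 had intervals that included 0 in both libraries. Gas5 was at 396, 409 and 441 CPM in YFP- and at 483, 489 and 490 CPM in YFP+ cells, and its log2 ratios were -0.16 (-0.62 to 0.28) and -0.02 (-0.18 to 0.13). Snhg8 had log2 ratios of 0.14 (-0.54 to 0.74) and -0.09 (-0.36 to 0.17), and Snhg12 of -0.10 (-2.23 to 1.49) and 0.13 (-0.55 to 0.77). The Snhg12 value moved to 0.41 and 0.94 when cells were thinned to 500 UMIs. Snhg1 had 0.28 (-1.04 to 1.36) in YFP- and -0.53 (-1.11 to 0.01) in YFP+ cells, and Kcnq1ot1 had 0.53 (-0.61 to 1.5) and 0.25 (-0.20 to 0.68). With only 3 Snhg12, 7 Snhg1 and 9 Kcnq1ot1 UMIs in the lowest YFP- bin, differences of several fold were not detectable at this depth.

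These ratios stand against a background in which many genes were past 1.5-fold. In YFP- cells 3 of the 8 RNAs (Malat1, Neat1 and Snhg20) were 1.5-fold or more higher in the lowest bin and 0 were lower, where 36.1% of 5900 genes were higher, 16.8% were lower and the median log2 ratio was 0.28. In YFP+ cells 2 of the 8 (Malat1 and Snhg20) were higher and 0 were lower, where 13.2% of 5524 genes were higher, 4.27% were lower and the median was 0.09. A count of 3 of 8 is a share near that of all genes in YFP- cells, and 2 of 8 rests on 2 RNAs. The lowest bin held 113718 UMIs in YFP- and 884182 in YFP+ cells, so a YFP- gene near 20 CPM rests on few UMIs. Counting error, and genes that pass the minimum through that bin alone, can add to the YFP- shares and median. Their part was not tested. Relative to the median of all genes the Malat1 log2 ratios were 0.77 and 0.58, the second now just under 1.5-fold, and the Neat1 ratios were 0.63 and 0.43.

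The bins differed in other RNA as well. From the lowest to the highest bin, mitochondrially encoded RNA was 2.81%, 1.49% and 0.895% of the UMIs of YFP- cells and 1.63%, 1.10% and 0.939% of those of YFP+ cells. Ribosomal protein RNA went the other way, from 11.8% to 21.6% in YFP- and from 18.7% to 22.2% in YFP+ cells. The 6 Schwann cell markers, none of them at 0, summed to 4080 CPM in the lowest and 467 CPM in the highest YFP- bin, and to 1543 and 470 CPM in YFP+ cells. Macrophage markers summed to between 13185 and 16866 CPM in every bin, with 0 of 10 at 0. When cells with over 1% of their UMIs on Schwann cell, mural cell, fibroblast and endothelial markers were left out (10 YFP- and 55 YFP+ cells), the Malat1 log2 ratio of lowest over highest bin was 1.09 in YFP- and 0.68 in YFP+ cells, as large as with them. Alternatives without mitochondrial genes, or without cells rich in mitochondrial RNA, were run, and some of them are given in the last section. The part of ribosomal protein RNA in these ratios was not tested.

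**Figure D3:**
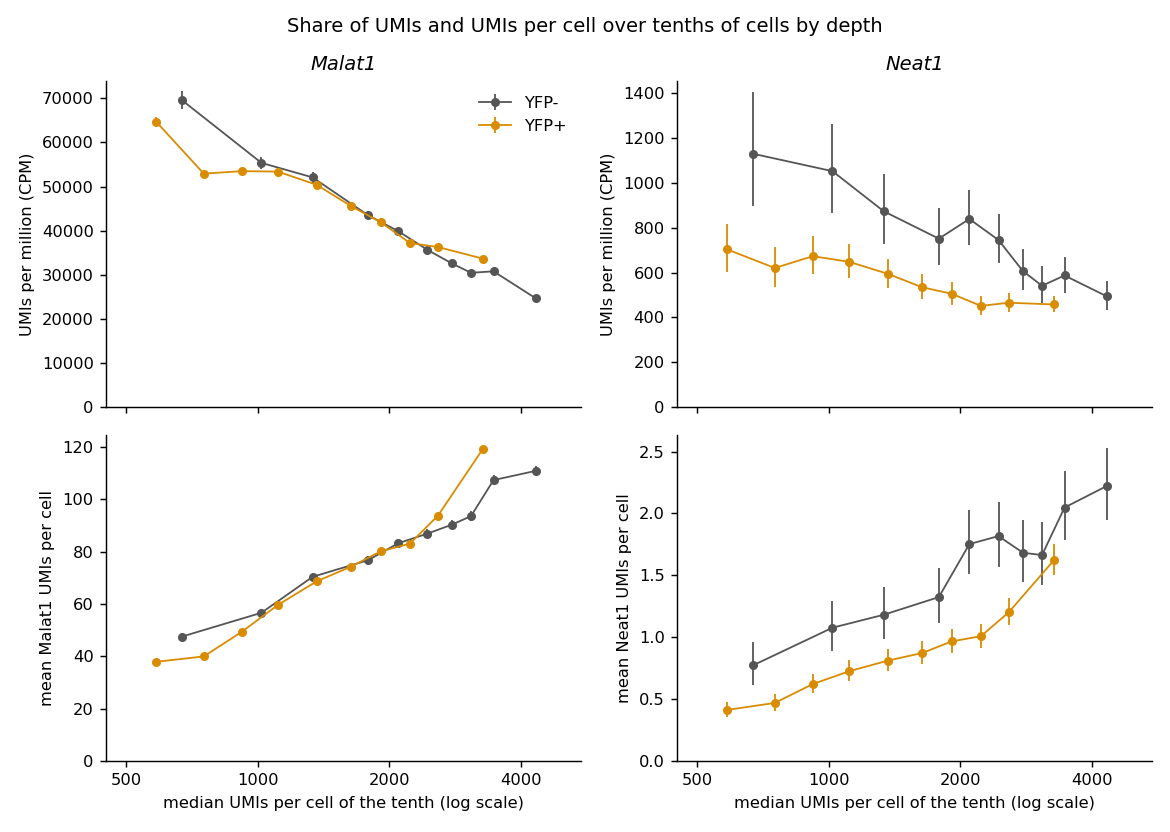
Malat1 and Neat1 in the cells of each library, ordered by depth and cut into 10 groups of like size, with the median UMIs per cell of a group on a log x axis, the share of UMIs in CPM above and the mean UMIs of the gene per cell below (bars, Poisson 95% intervals). Malat1 goes from 69602 CPM in the shallowest YFP- group (median 670 UMIs) to its lowest values in the deepest, while its UMIs per cell go up from 47.5, and the Neat1 curve of YFP- cells lies above that of YFP+ cells.

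Genes that share a nuclear life or a structure with the 8 RNAs were read in the same bins. Among 10 genes whose transcripts are known to keep introns in the nucleus, all 10 had log2 ratios above 0 in both libraries. Their medians were 0.44 and 0.42 against 0.28 and 0.09 over all genes. Only 2 were past 1.5-fold in each library, where 36.1% and 13.2% of all genes were higher by that much. In YFP- cells they ran from Srsf5 (0.24, -0.23 to 0.68), a splicing factor, to Clk1 (0.96, 0.47 to 1.41), a kinase of splicing factors. In YFP+ cells they ran from Srsf7 (0.25, 0.04 to 0.46) to Ogt (0.73, 0.53 to 0.94), which attaches GlcNAc to proteins.

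Paraspeckle proteins, the partners of Neat1, had medians of 0.38 and 0.29 over 8 genes with enough UMIs, against 0.28 and 0.09 over all genes. Of the 8, 3 and 1 were past 1.5-fold higher and 0 lower. These counts are near the shares of all genes, of which 36.1% and 13.2% were higher. Hnrnph3 was the highest in both libraries, at 1.53 (0.41 to 2.50) in YFP- and 0.64 (0.15 to 1.11) in YFP+ cells. Hnrnpk was the lowest in both, at -0.21 (-0.81 to 0.33) and -0.55 (-0.77 to -0.33). Other long non-coding RNAs were few: of 16 listed, 6 in YFP- and 3 in YFP+ cells reached 20 CPM, and 5 and 1 of these were past 1.5-fold higher. Meg3, an imprinted RNA, was the highest in YFP- cells at 4.87 (2.71 to 5.72), on 43.97 CPM in the lowest and 0.533 CPM in the highest bin. It reached a mean of 20 CPM only through the lowest bin, which held 113718 UMIs over all genes, so its ratio rests on few UMIs. Genes can pass that minimum through the lowest bin alone, so the count of 5 of 6 may be partly set by it. In YFP+ cells the highest was Tug1, at 0.79 (0.40 to 1.17), and the lowest was AW112010, at -0.66 (-1.51 to 0.13). AW112010 was also the lowest in YFP- cells, where its ratio was 0.53 (-1.30 to 1.96).

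Other snoRNA hosts were mixed in direction. Of 17 listed, 13 were in the matrix, and 5 in YFP- and 6 in YFP+ cells reached 20 CPM. Their medians were -0.17 and 0.21, and Snhg9 was the highest in both libraries, at 1.39 (0.28 to 2.35) and 0.89 (0.25 to 1.5). The lowest were Epb41l4aos in YFP- cells (-1.97, -4.99 to 0.43) and Snhg6 in YFP+ cells (-0.15, -0.70 to 0.36). Snhg9 was also lower in YFP+ than in YFP- cells, with a log2 ratio of -0.94 (-1.30 to -0.58), and it was the only listed host past 1.5-fold in that comparison.

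Ribosomal protein genes are known for the TOP motif. In YFP- cells 82 of 90 were 1.5-fold or more lower in the lowest bin (median -0.90) and 0 were higher. In YFP+ cells 1 of 90 was lower and 0 were higher (median -0.25). Of the members with the longer pyrimidine runs, Gas5 (-0.16 and -0.02), Snhg8 (0.14 and -0.09) and Snhg12 (-0.10 and 0.13) had values above these medians. The Snhg1 value alone was below the ribosomal median in YFP+ cells, at -0.53. Only the Gas5 interval lay above the ribosomal median in both libraries. That of Snhg8 did so in YFP- cells only, and those of Snhg12 and Snhg1 included it in both libraries, so their places are not resolved. Mitochondrially encoded genes were 1.5-fold or more higher in 15 of 15 cases in YFP- (median 1.68) and in 12 of 14 in YFP+ cells (median 0.73). All 14 had log2 ratios above 0 in YFP+ cells. Of all genes, 36.1% in YFP- and 13.2% in YFP+ cells were 1.5-fold or more higher. Of 8 genes of nonsense-mediated decay, 6 reached 20 CPM, with medians of 0.92 and 0.47 against 0.28 and 0.09 over all genes. These medians may be partly set by that minimum, which a gene can pass through the lowest bin alone. The highest decay genes were Smg1 in YFP- (1.46, 0.54 to 2.28) and Smg6 in YFP+ cells (0.83, 0.28 to 1.35). The lowest were Smg6 in YFP- (-0.49, -3.10 to 1.38) and Upf3a in YFP+ cells (-1.14, -1.99 to -0.38). Of the 7 neighbours of Kcnq1ot1 in its imprinted domain, 2 in YFP- and 3 in YFP+ cells reached 20 CPM, and Cd81, a tetraspanin of the cell surface, was the lowest in both, at 0.22 (-0.04 to 0.47) and -0.24 (-0.34 to -0.14). The highest were Tssc4 in YFP- (0.37, -1.78 to 1.98) and Cdkn1c, an inhibitor of cyclin-dependent kinases, in YFP+ cells (0.29, -0.44 to 0.97).

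The same lists were also read between YFP+ and YFP- cells. Their medians lay between -0.11 for mitochondrially encoded genes and 0.09 for paraspeckle proteins. None of the 7 paraspeckle, 10 intron-keeping, 6 decay or 3 imprinted genes was past 1.5-fold. Against 5.77% of all genes, 5 of 14 mitochondrially encoded genes were lower by 1.5-fold or more in YFP+ cells (down to a log2 ratio of -1.55) and 8 of 90 ribosomal protein genes were (down to -1.32), with 0 higher in either list. Within the lowest bin, where the median over all genes was -0.21, the median was 0.66 for ribosomal protein genes and -0.93 for mitochondrially encoded genes.

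**Figure D4:**
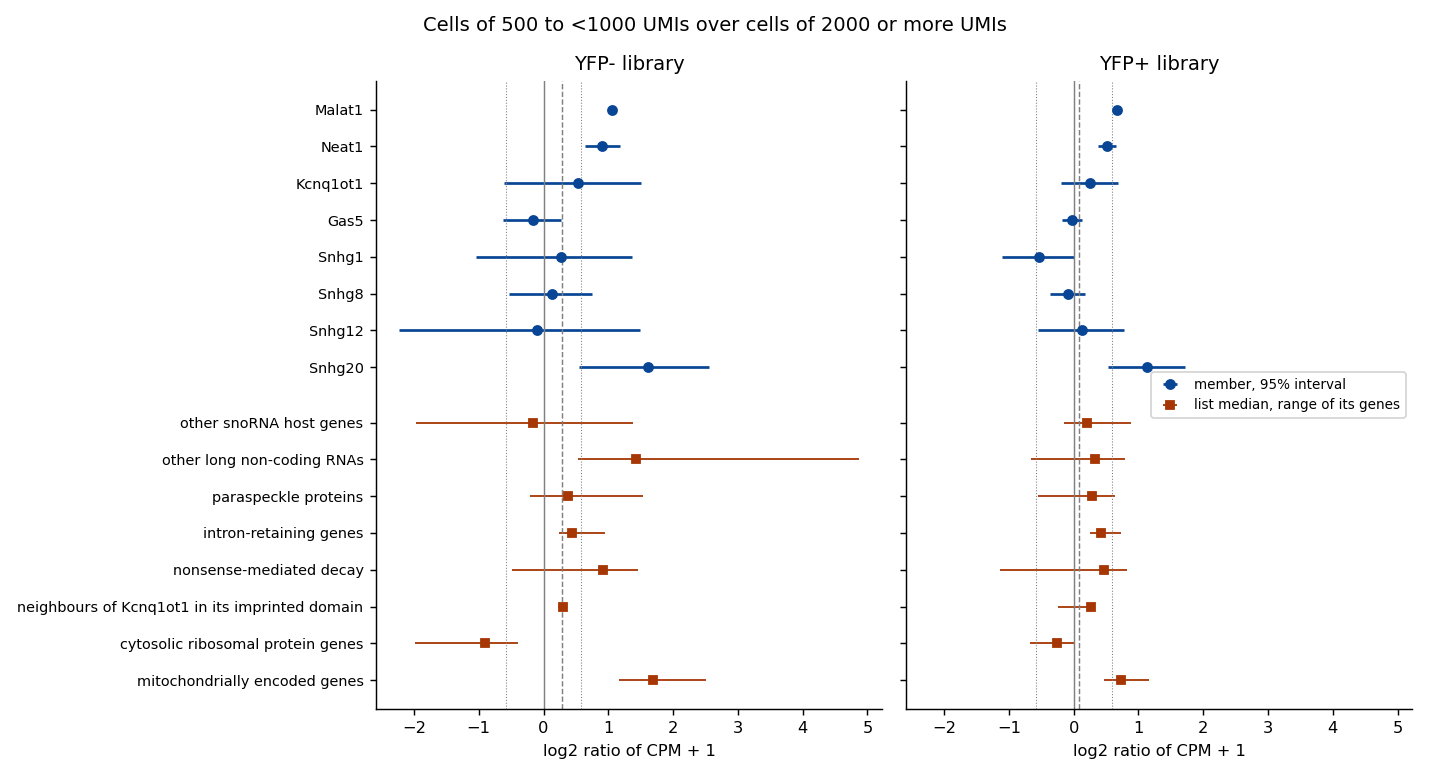
Log2 ratio of cells of 500 to under 1000 UMIs over cells of 2000 or more (x axis, of CPM + 1) in the YFP- library (left) and the YFP+ library (right), for the 8 RNAs (blue, 95% intervals) and for the lists (brown squares, median; lines, range of the genes with at least 20 CPM). The solid line is 0, the dashed line is the median of all genes and dotted lines mark 1.5-fold. Malat1, Neat1, Kcnq1ot1 and Snhg20 lie to the right of the dashed line in both libraries. The Kcnq1ot1 intervals cross that line, and ribosomal protein genes lie to its left.

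RNA outside cells was read from barcodes with 10 to under 100 UMIs. The median log2 ratio of cells over this RNA was -0.14 in YFP- and -0.10 in YFP+ over all genes. Its Malat1 level was nearly the same in both libraries, 18306 CPM (YFP-) and 18374 CPM (YFP+), so cells were above it by log2 ratios of 0.96 (0.93 to 0.98) and 1.21 (1.19 to 1.22). That likeness depends on the band, since barcodes of 1 to under 10 UMIs had Malat1 at 21148 CPM (YFP-) and 34842 CPM (YFP+). Kcnq1ot1 was the other member that was higher in cells, by 0.75 (0.19 to 1.34) and 0.76 (0.40 to 1.14). Neat1 was slightly lower in cells than outside them, by -0.22 (-0.35 to -0.09) and -0.14 (-0.24 to -0.05), which is near an ordinary gene (42.9th and 45.6th percentile). Outside cells it was at 782 CPM (726 to 842) in the YFP- and 577 CPM (544 to 611) in the YFP+ library, the same direction as in cells. In barcodes of 1 to under 10 UMIs the order was reversed, at 767 and 872 CPM, with overlapping intervals. How much of the Neat1 difference in cells comes from RNA outside cells was not tested. All 5 snoRNA hosts were lower in cells in both libraries, and each of these intervals lay below 0. Gas5 was at 433 CPM in YFP- cells against 615 outside (-0.50, -0.65 to -0.35) and at 488 against 773 in the YFP+ library (-0.66, -0.75 to -0.57). Snhg20 had the lowest ratios, -1.28 (-1.71 to -0.84) and -1.36 (-1.68 to -1.04), on 38.0 CPM in cells against 93.5 CPM outside and 27.0 against 70.8 CPM. Snhg1 was at -0.56 (-0.97 to -0.13) and -0.56 (-0.84 to -0.27), Snhg8 at -0.30 (-0.54 to -0.05) and -0.45 (-0.61 to -0.30), and Snhg12 at -0.83 (-1.37 to -0.27) and -0.80 (-1.17 to -0.42). Among all genes Snhg8 lay at the 36.8th and 17.4th percentile, and the other 4 hosts lay between the 1.23rd and the 19.8th.

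The RNA outside cells was itself rich in macrophage RNA, with a marker sum of 16199 and 15395 CPM against 14541 and 14902 CPM in cells, and it held more Schwann cell RNA, at 3230 and 5157 CPM against 696 and 637 CPM. Barcodes of 100 to under 500 UMIs were closer to low-UMI cells than to the bands below them in Malat1, with 46626 CPM (YFP-) and 60972 CPM (YFP+). Their Schwann cell markers summed to 11043 and 11739 CPM and their mitochondrial share was 5.79% and 3.36%. Gas5 stayed at 782 and 694 CPM in these barcodes.

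To count the cells in which an RNA was seen, every cell was first thinned to the same 500 UMIs, which left out no cell. Malat1 was seen in 99.6% of YFP- and 99.7% of YFP+ cells, not above the 99.99% that RNA from outside cells alone would give. Neat1 was seen in 30.05% (27.3 to 32.9) of YFP- and 22.9% (21.6 to 24.2) of YFP+ cells, and in 67.8% and 50.8% without thinning. If each cell held only the RNA found outside cells, 500 UMIs would show Neat1 in 32.4% and 25.1% of cells, so the share of cells with Neat1 was not above that background. The same held for Gas5, seen in 18.1% and 21.3% of cells against 26.5% and 32.1% from outside RNA alone, and for Snhg8, Snhg1, Snhg12 and Snhg20. Kcnq1ot1 was above it, at 4.21% (3.08 to 5.61) and 2.76% (2.28 to 3.32) against 1.69% and 1.71%. No cell type that should lack these RNAs was present to serve as a background, and macrophage RNA makes up much of what lay outside.

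Malat1 varied between cells far beyond counting error. The intervals of its levels and ratios given here do not cover this spread. After thinning, its variance over its mean was 8.13 in YFP- and 8.17 in YFP+ cells, where a Poisson count gives 1. From the lowest to the highest bin the Malat1 value was 14.7, 5.55 and 3.004 in YFP- cells. In YFP+ cells it was 12.7, 5.34 and 3.18. In all cells Neat1 was at 1.32 and 1.16, and the other 6 lay between 0.990 and 1.17. Mean thinned counts were 20.9 and 23.5 for Malat1 but 0.404 and 0.278 for Neat1. Variance over mean depends on the mean count, so these values do not show that Malat1 varied more than the other RNAs. Malat1 took a median of 3.56% of the UMIs of a YFP- cell (5th to 95th percentile 1.61% to 8.56%) and 4.10% of a YFP+ cell (1.74% to 9.76%). It took over 10% in 30 YFP- cells (2.87%) and 187 YFP+ cells (4.61%), up to 23.8% and 33.9%, and 22 and 144 of these cells had under 1000 UMIs.

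Across cells, the genes whose thinned counts most resembled those of Malat1 were few and weakly related. The 5 highest of 2632 genes were Cd163, Mbnl1, Maf, Mef2c and Zeb2, with Cd163, a scavenger receptor of macrophages, at Pearson's r of 0.14 over 1045 YFP- and 0.12 over 4053 YFP+ cells. The 5 lowest were Tmsb4x (-0.27 and -0.24), which binds actin monomers, and the ribosomal protein genes Rps4x, Rpl13, Rps27 and Rps14. Over cells, Malat1 had r of -0.39 and -0.38 with the sum of ribosomal protein genes, 0.19 and 0.09 with that of mitochondrially encoded genes, and -0.42 and -0.23 with log2 UMIs per cell. The highest for Neat1 were Klf2 (0.12 and 0.07) and Malat1 itself (0.11 and 0.07), then Rsrp1, Ifi30 and Atp6ap1, and the lowest were Rps29, Tmsb4x, Gm8730, Rps27 and Fau. Cells of a library share its depth and its outside RNA, and in counts fixed to a sum a large RNA lowers the others, so these values are descriptions.

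The cells fell into 10 clusters when the 8 RNAs were left out of the clustered genes. Clusters are named by number and leading genes, and 9 held at least 20 cells of both libraries. Malat1 ranged from 27123 CPM in cluster 9, led by Top2a and histone genes of dividing cells, to 61110 CPM in cluster 8, led by Cd209g, Cd209f and Enpep, and 61233 CPM in cluster 10, led by Myh11, Acta2 and Tagln. Neat1 had its lowest level in cluster 9 as well, 276 CPM, and its highest in cluster 8, 847 CPM. Gas5 differed least, from 365 to 534 CPM. The depth of the clusters moved with these levels: cells had a median of 2515 UMIs in cluster 9, 1191 in cluster 8 and 970.5 in cluster 10. Cluster 10 held 94 cells with macrophage markers at 6397 CPM, Schwann cell markers at 23167 CPM and mural cell markers at 5555 CPM, which goes against the sort.

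Malat1 was higher in YFP+ than in YFP- cells in 9 of those 9 clusters, by log2 ratios of 0.24 to 0.48, with every interval above 0. Neat1 was lower in 9 of 9, by -0.86 to -0.07, with 6 intervals below 0. All clusters come from the same 2 libraries, so a difference between the libraries as a whole can recur in each, and they are not independent. Within a cluster the YFP+ cells could still be shallower, so clusters were also split by bin, which left 11 strata with at least 20 cells of each library. Malat1 was higher in YFP+ cells in 7 of 7 strata of 2000 or more UMIs (0.15 to 0.41, every interval above 0) and in 2 of 3 strata of 1000 to under 2000 UMIs (-0.01 to 0.21). In the only stratum of 500 to under 1000 UMIs, that of cluster 3 led by Col1a1, the 206 YFP+ cells were at 67582 CPM and the 80 YFP- cells at 69547 CPM (log2 ratio -0.04, -0.09 to 0.01). That cluster held 80 of the 150 YFP- cells of the lowest bin. Of its 10 leading genes 5 were fibroblast markers, and the fibroblast markers summed to 361 CPM there against 16163 CPM for macrophage markers. Their part in its values was not tested. Neat1 was lower in YFP+ cells in 11 of 11 strata (-1.20 to -0.14), with 7 intervals below 0. YFP- cells were still deeper in 7 of 7 strata of 2000 or more UMIs, with a median of 2918 against 2509 in cluster 2 and 3370 against 2686 in cluster 5.

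The ratio of low-UMI to high-UMI cells was also read within clusters, here with the cells of both libraries pooled. Libraries were mixed differently in the 2 bins. In cluster 1 the low bin held 11 YFP- and 569 YFP+ cells, and the high bin held 49 and 96. The part of this mix in the ratios below was not tested. Of 8 clusters with at least 20 cells in both bins, Malat1 was higher in the low bin in 7, by log2 ratios of 0.54 to 1.02, and lower in cluster 10 (-0.37, -0.44 to -0.29). Neat1 was higher in the low bin in 8 of 8 (0.14 to 1.39), with 5 intervals above 0. Gas5 was higher in 3 of 8 and none of these intervals lay above 0, and Snhg20 was higher in 7 of 8, again with no interval above 0, on few UMIs per cluster. Snhg12 had an interval above 0 in 1 of 8, cluster 5 (1.43, 0.03 to 2.63). Intervals below 0 occurred for Gas5 in 1 of 8, cluster 5 (-0.52, -1.08 to -0.003), and for Snhg8 in 1 of 8, cluster 2 (-2.32, -5.11 to -0.49).

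**Figure D5:**
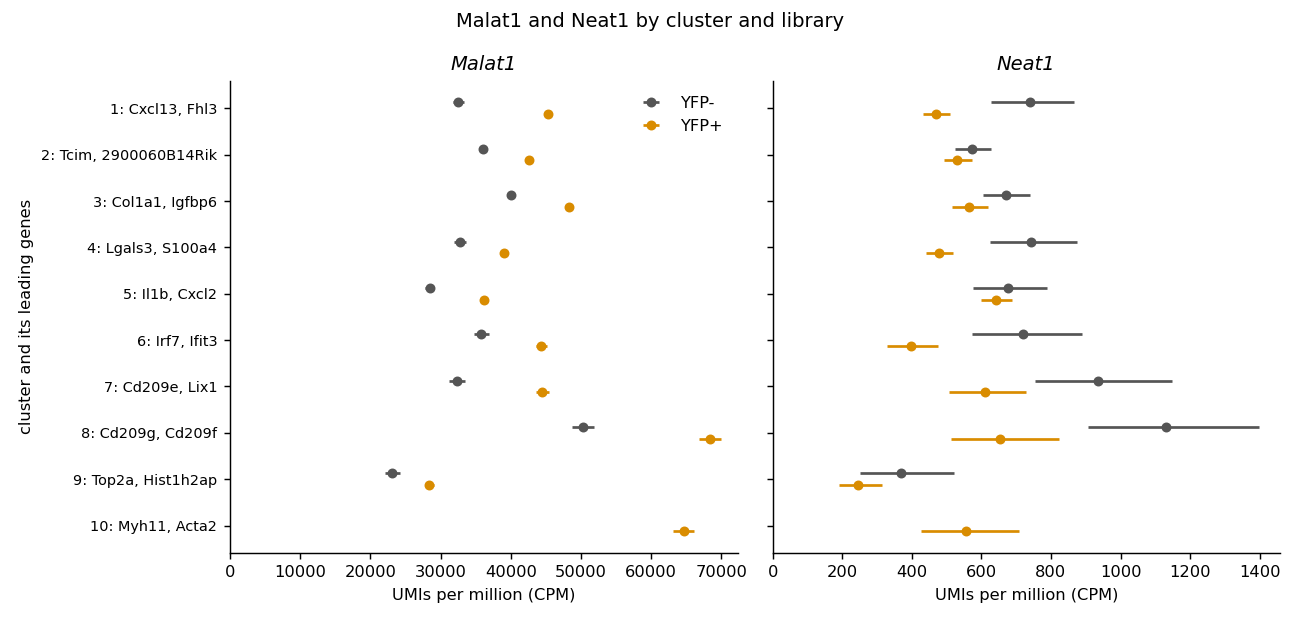
Level of Malat1 (left) and Neat1 (right) in CPM (x axis, from 0) in each cluster, given with its 2 first leading genes (y axis), for YFP- (grey) and YFP+ cells (orange), with Poisson 95% intervals where a library has at least 20 cells. YFP+ points lie to the right for Malat1 and to the left for Neat1 in each of the 9 clusters with both libraries, and cluster 10 has YFP+ cells only at this minimum.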

How the data were processed

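Both libraries were deposited as matrices of raw UMI counts (genes by barcodes). The authors had built them with 10x Chromium Single Cell v2 chemistry and aligned the reads to GRCm38/mm10 with cellranger. The submitters' processing notes name Cell Ranger 3.0.2 and Seurat 2.2.0, and the methods name an older cellranger release. No cell filter had been applied, and the annotation release is not given in the sources used here. Of the gene IDs, 99.8% were found in GENCODE M21, which gave the positions, and RefSeq promoters gave 7 of the 8 starts.

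Counts were summed over cells and divided by total UMIs. Python 3.11.15, numpy 2.4.6, scipy 1.17.1, pandas 2.3.3, scanpy 1.11.5, leidenalg 0.10.2 and matplotlib 3.10.9 were used. Intervals are exact (Poisson for levels, Clopper-Pearson for shares, conditional binomial for ratios) at 95%, a pseudocount of 1 CPM was added, and a gene was called at 1.5-fold with a mean of at least 20 CPM. Doublets were kept. Clusters used 2000 variable genes, 20 components, 20 neighbours and Leiden resolution 0.8. The ratio, interval and thinning steps were tested on simulated data. Correlations used genes with at least 50 CPM, and list examples are the highest and lowest genes of each list in the comparison of bins (ribosomal protein and mitochondrially encoded genes are given by counts and medians), except for 1 result that is not reported here.

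The 8 RNAs, the lists and the comparisons were chosen with earlier results of these data known. Alternatives covered the cell minimum, mitochondrial RNA, cell weights, thinning, denominators, pseudocounts, high-UMI cells and RNA outside cells. Bulk RNA libraries of the study were not used here.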

Additional observations from a re-analysis of the deposited data

Results flagged for a closer look

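The Malat1 ratio of YFP+ over YFP- went opposite ways at the 2 ends of depth, with a log2 ratio of -0.18 in cells of 500 to under 1000 UMIs and 0.20 in cells of 2000 or more UMIs, and both intervals excluded 0. With 1 library per group the difference between these ratios was not tested. The intervals cover counting error only, and Malat1 varied between cells beyond it. After thinning, its variance over its mean in the lowest bin was 14.7 in YFP- and 12.7 in YFP+ cells. Cells of the highest bin were not of like depth, with a median of 2946 UMIs in YFP- and 2541 in YFP+ cells. The median over all genes was -0.21 in the lowest bin, where the 20 CPM minimum may partly set it, and 0.01 in the highest. The cells of the lowest bin were mixed differently, with 80 of 150 YFP- cells in cluster 3 and 569 of 1184 YFP+ cells in cluster 1, and within cluster 3 the log2 ratio of that bin was -0.04 (-0.09 to 0.01). The YFP- cells of the lowest bin held 11.8% ribosomal protein RNA and 2.81% mitochondrial RNA, against 18.7% and 1.63% in YFP+ cells of that bin, and the part of these shares in the result was not tested.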

How the results depend on the processing

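No paired analysis was possible because each group is 1 library, and no library could be left out. For YFP+ over YFP-, the Malat1 log2 ratio was 0.24 with at least 1000 UMIs per cell, 0.18 with equal weight per cell, 0.17 after thinning to 500 UMIs, 0.27 with 10% of RNA outside cells subtracted, 0.24 without cells over 1% of other-cell-type markers and -0.036 with the bins weighted equally. Neat1 was at -0.54 after thinning and -0.62 with equal bins, and stayed below 0 in all 14 alternatives (-0.62 to -0.35). The number of RNAs 1.5-fold or more lower was 1 with equal cell weights, 3 after thinning (Kcnq1ot1, Snhg1 and Snhg20, in 1 random draw of few UMIs) and 2 with equal bins. The share of all genes past the threshold was not computed under the alternatives, here or for the bins below. Such counts are therefore not a result about the 8 RNAs. For the lowest over the highest bin in YFP- cells, Malat1 was at 1.01 after thinning, 0.99 with bins set without the 8 RNAs and mitochondrial genes, 0.77 with the median gene set to 0, 1.10 with outside RNA subtracted and 1.09 without cells over 1% of other-cell-type markers. Neat1 was at 0.63 with the median gene set to 0, and 5 RNAs were higher with the bins redefined. In YFP+ cells Malat1 was at 0.64 with the bins redefined, 0.58 with the median set to 0, 0.70 with outside RNA subtracted and 0.65 without cells above the 99th percentile of UMIs. There 1 RNA was higher at a 2-fold threshold or with the median set to 0, and 1 (Snhg1) was lower with equal cell weights, with the median set to 0 or with outside RNA subtracted. Leaving out the 7 shared barcodes moved no Malat1 or Neat1 ratio out of its interval. No log2 ratio past 1.5-fold changed direction. Equal bins, other-cell-type markers, shared barcodes and, for the bins, the 99th percentile were chosen after seeing the data. Depth limits Snhg1, Snhg12, Snhg20 and Kcnq1ot1, which had 68 to 140 UMIs in YFP- cells.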
